A study of Mus musculus with 48 samples.

Results

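Kidney slices labelled as control were compared between 24 h and 6 h of culture. The comparison used 12 of the 48 libraries of the series: 3 libraries at each time from slices of male C57BL/6J mice and 3 at each time from slices of male DBA/2J mice, all labelled control. The libraries were taken by the treatment, time and strain in their labels. The series as a whole modelled kidney toxicity and oxygen stress in slices of the same strains, with cyclosporin A and tunicamycin at 6 h and 24 h and with normoxia and normoxia-hyperoxia. The controls carried no allele, transgene or drug that the labels name. The labels number biological replicates but do not say whether the 3 slices of a group came from separate mice, so p-values measure the spread between these libraries. Uncultured kidney was not analysed here, so every change described below ran from 6 h to 24 h of culture and not from the intact organ.

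The nephron is a tube of specialised epithelia. The proximal tubule reabsorbs filtered glucose, phosphate, amino acids and protein and depends on oxidation of fatty acids, the thick ascending limb and distal tubule recover salt, calcium and magnesium, and the collecting duct adjusts water, potassium and acid. Tubular epithelium that is injured or taken out of the body is known to lose these transport programmes, to express injury proteins such as KIM-1 and to shift from oxidative metabolism towards glycolysis, a process called dedifferentiation.

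The 12 libraries held 12384733 to 21895766 counts each. A principal component analysis of them placed the 6 h and 24 h libraries at opposite ends of the component with the most variance (54.2%) and the strains at opposite ends of the next (28.7%). Counts of the mitochondrial genome took 15.4% ± 0.78 of the total at 6 h and 6.82% ± 0.97 at 24 h in C57BL/6J, and 8.16% ± 0.15 and 3.52% ± 0.12 in DBA/2J (SD, n = 3). Replicate 2 of the C57BL/6J 6 h group stood somewhat apart, at -37.3 on the component that separated the times, where the other two lay at -64.7 and -58.3. Values without it are given for the 8 plotted genes, Vegfa, the interferon list and the counts of strain differences.

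Levels below are counts per 1000000 (CPM) after TMM normalization, which corrects for the make-up of each library, and are listed for replicates 1, 2 and 3, and a gene changed when its mean effect over both strains had an edgeR quasi-likelihood p-value, adjusted by Benjamini-Hochberg, under 0.05. Of the 16962 genes tested, 12221 changed (72%), with 5883 higher (34.7%) and 6338 lower (37.4%) at 24 h. A share of called members near these values is the background and not a property of a list. A log2 fold change beyond 1 was found for 1720 higher genes (10.1%) and 2989 lower genes (17.6%), and the median over all tested genes was -0.02. With scaling by total counts in place of TMM, 60.4% of called genes were higher instead of 48.1% and the median moved to 0.19, so a log2 fold change of about 0.2 or less has no firm sign. Lists of genes, grouped by cell type and pathway, are described by their counts and medians against this background.

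Markers of every nephron segment fell. Every member of the 7 nephron lists passed the filter on low counts, and the markers were not in conflict with the tissue label, kidney. All 15 early proximal tubule markers were lower at 24 h, with a median log2 fold change of -2.67, and so were all 8 markers of the straight proximal segment (median log2 -2.14), all 12 of the thick ascending limb (median log2 -1.90) and all 10 of the distal convoluted and connecting tubule (median log2 -1.93). Of 15 intercalated cell markers 14 fell and 1 rose (median log2 -2.26), and of 10 collecting duct principal cell markers 9 fell (median log2 -1.28). The podocyte list fell in all 12 members but by less, with a median log2 fold change of -0.68. In bulk slices, fewer cells of a type and less RNA per cell cannot be told apart.

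Slc34a1 (ENSMUSG00000021490, chr13:55398187-55415592), the sodium-phosphate cotransporter of the proximal brush border, stood at 3269, 1633 and 2768 CPM at 6 h against 186, 323 and 307 CPM at 24 h in C57BL/6J, and 3246, 3072 and 3778 CPM at 6 h against 997, 439 and 819 CPM at 24 h in DBA/2J. Every 24 h library lay below every 6 h library of its strain, and replicate 2 was the lowest of the C57BL/6J 6 h group. The fitted log2 change of Slc34a1 was -2.70 (SE 0.24, edgeR adjusted p = 9.42e-07). Lrp2, which encodes the endocytic receptor megalin, fell (log2 -2.65), and its partner receptor gene Cubn (cubilin) (-3.19). Gatm, which makes the creatine precursor guanidinoacetate, had the largest fall of the early list at log2 -3.26, followed by Cubn and by Slc5a12, a lactate cotransporter (-3.16). The sodium-glucose cotransporter Slc5a2 (SGLT2) fell (log2 -2.65) and the neutral amino acid transporter Slc6a19 (-1.14), the smallest fall of the list. Summed levels of the early list were 3758 to 7086 CPM at 6 h and 519 to 832 CPM at 24 h in C57BL/6J, and 8113 to 9751 CPM at 6 h and 1193 to 2553 CPM at 24 h in DBA/2J, without overlap in either strain. In the straight segment, Slco1a6, an organic anion transporter, changed by a log2 value of -2.99 and Slc7a13, an aspartate and glutamate transporter, by -2.82. Slc22a19, with a mean log2 CPM of only 1.40, changed by a log2 value of -2.35. In C57BL/6J its times overlapped and it did not pass (log2 -1.18, edgeR adjusted p = 0.161), and in DBA/2J it fell (log2 -3.51).

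In the thick ascending limb, the apical potassium channel gene Kcnj1 (ROMK) had the largest fall, at log2 -2.76, with the calcium-sensing receptor Casr at -2.66 and the chloride channel subunit Bsnd (barttin) at -2.63. Slc12a1, the target of loop diuretics (NKCC2), fell (log2 -1.96). Umod (ENSMUSG00000030963, chr7:119462711-119479282), which encodes uromodulin, the most abundant urinary protein, was at 6801, 7444 and 7686 CPM at 6 h against 2655, 3248 and 1345 CPM at 24 h in C57BL/6J, and 4443, 3487 and 2742 CPM at 6 h against 600.0, 2334 and 1823 CPM at 24 h in DBA/2J. The 24 h libraries of Umod lay below the 6 h libraries in each strain but spread widely, with 1 low library in each 24 h group. This was a log2 fold change of -1.38 (SE 0.306, edgeR adjusted p = 0.00162). Distal to it, the sodium-calcium exchanger Slc8a1 fell (log2 -3.40), the calcium-binding protein gene Pvalb (-2.43), the calcium channel Trpv5 (-2.10) and the thiazide-sensitive cotransporter Slc12a3 (-1.97). The difference between strains also passed the test for Slc12a3 (log2 -2.47 in C57BL/6J and -1.47 in DBA/2J, edgeR adjusted p for the difference = 0.0492), a call kept under 6 of 19 alternatives.

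Among principal cell genes, Hsd11b2, the enzyme that inactivates glucocorticoid in aldosterone target cells, fell most (log2 -2.48). The water channel genes Aqp2, Aqp3 and Aqp4 changed by a log2 value of -1.44, -1.39 and -1.81, and the vasopressin receptor Avpr2 by -1.23. The level of Aqp2 was 119, 78.9 and 79.6 CPM at 6 h against 25.8, 46.7 and 33.6 CPM at 24 h in C57BL/6J, and 89.4, 120.4 and 76.1 CPM at 6 h against 19.9, 38.6 and 43.3 CPM at 24 h in DBA/2J, again without overlap. Elf5, a transcription factor of the lineage, did not pass the test (log2 -0.04), and Gata3 fell (-0.33). In intercalated cells the acid-base transporters Slc4a1 (AE1, type A cells) and Slc26a4 (pendrin, type B cells) fell (log2 -3.27 and -3.14), and the receptor kinase gene Insrr (-3.42). Foxi1, the master transcription factor of these cells, fell (log2 -2.04). Kit, a receptor kinase that other cell types also express, was the single riser of the list (log2 1.43).

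Podocytes are the filter cells of the glomerulus. The nephrin gene Nphs1 was at 235, 236 and 228 CPM at 6 h against 154, 134 and 145 CPM at 24 h in C57BL/6J, and 166, 170.5 and 159 CPM at 6 h against 62.3, 102 and 87.7 CPM at 24 h in DBA/2J, with no overlap between times. Its fitted log2 change was -0.83 (SE 0.0948, edgeR adjusted p = 1.61e-06). The list's largest falls were those of the scaffold gene Magi2 (log2 -1.53), the transcription factor Tcf21 (-1.37) and the phosphatase gene Ptpro (-1.15), and Wt1 fell (-0.53). Summed podocyte levels were 2854 to 3068 CPM at 6 h and 1619 to 1858 CPM at 24 h in C57BL/6J, and 1996 to 2311 CPM at 6 h and 869.9 to 1331 CPM at 24 h in DBA/2J. Of 6 juxtaglomerular and macula densa genes 3 fell and 2 rose (median log2 -1.58). Pappa2 fell (log2 -5.23), the vasopressin receptor Avpr1a (-2.63) and the macula densa nitric oxide synthase Nos1 (-2.32). The prostaglandin synthase gene Ptgs2, which is also an injury-responsive gene in other cells, rose by a log2 value of 2.08. The renin gene Ren1 did not pass (log2 -0.84, edgeR adjusted p = 0.154).

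**Figure D1:**
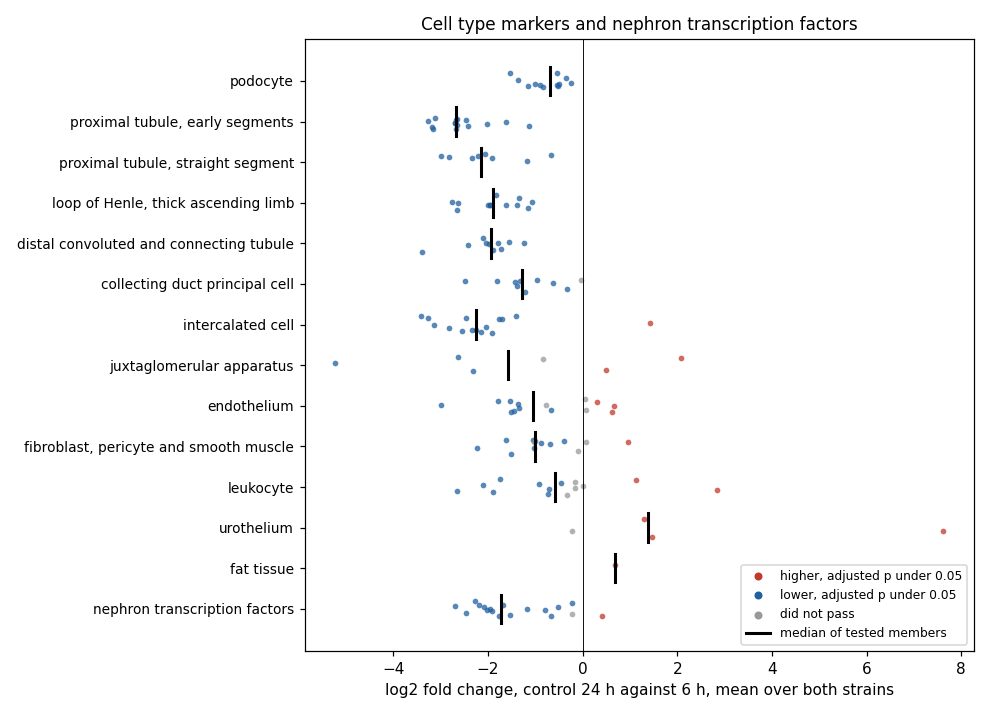
Log2 fold change of control slices at 24 h against 6 h (x axis, mean over both strains) for each tested member of the cell type lists and of the nephron transcription factors. Points are genes, coloured by direction where the adjusted p was under 0.05, and black bars are list medians. Early proximal tubule markers centre near -2.67 and podocyte markers near -0.68, and the urothelial point at the far right is Krt5, which was at the counting floor at 6 h.

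Lists for the cell types between the tubules were mixed. Of 14 endothelial genes 8 fell and 3 rose (median log2 -1.06). The fenestral diaphragm gene Plvap fell (log2 -2.99) and the angiopoietin receptor genes Tek and Tie1 (-1.79 and -1.54), while the junction gene Cdh5 (VE-cadherin) rose by 0.67 and Pecam1 did not pass (0.05). Of 13 genes of fibroblasts, pericytes and smooth muscle 9 fell and 1 rose. The collagen genes Col1a1, Col1a2 and Col3a1 changed by a log2 value of -2.22, -1.62 and -1.52, Acta2 by -1.01 and the actin-binding protein gene Tagln by 0.96. Replicate 1 of the DBA/2J 6 h group stood apart for the collagens, with Col1a1 at 103, 12.2 and 14.6 CPM. Without that library the log2 fold changes of Col1a1, Col1a2 and Col3a1 were -1.37, -1.26 and -1.05, and that of Col1a1 in DBA/2J went from -2.48 to -0.78. In the drug-treated slices described further on Col1a1 did not pass, with log2 values of -0.23 under cyclosporin A (edgeR adjusted p = 0.709) and -0.57 under tunicamycin (edgeR adjusted p = 0.348).

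Among 15 leukocyte genes, 14 were tested, 8 fell and 2 rose. Cd74, a chaperone of class II antigen presentation, fell (log2 -1.90) and the resident macrophage receptor gene Cx3cr1 (-1.74), while the integrin Itgam of myeloid cells rose by 2.84 and the lysosomal gene Cd68 by 1.12. Adgre1, the macrophage F4/80 gene, did not pass (log2 0.00). Summed leukocyte levels were 605 to 836 CPM at 6 h and 249 to 399.6 CPM at 24 h in C57BL/6J, and 699 to 773 CPM at 6 h and 343 to 463 CPM at 24 h in DBA/2J. Of the 8 urothelial markers 4 passed the filter on low counts: Krt20 (log2 1.46), Upk1a (1.30) and Krt5 rose and Trp63 did not pass (-0.22). Krt5, a basal keratin, was at or under 3 counts in every 6 h library and at 2.26, 3.21 and 3.5 CPM at 24 h in C57BL/6J and 4.5, 2.45 and 3.92 CPM in DBA/2J, at least 16.1-fold and 22.9-fold higher against that floor of 3 counts per library. Of 8 fat tissue markers only Fabp4, also an endothelial gene, passed the filter, and it rose by a log2 value of 0.67. Summed levels of the urothelial list were 9.84 to 34.6 CPM at 6 h and 47 to 64.6 CPM at 24 h in C57BL/6J, and 17.2 to 34.6 CPM at 6 h and 47.8 to 88.8 CPM at 24 h in DBA/2J, nearly all of it Krt20. The uroplakin genes Upk1b, Upk2, Upk3a and Upk3b, which define urothelium, were at or under 0.457 CPM in all 12 libraries, and Upk2 was at 0 counts in each. Summed levels of the fat list were 105 to 146 CPM at 6 h and 188 to 252 CPM at 24 h in C57BL/6J, and 84.1 to 99.2 CPM at 6 h and 104 to 175 CPM at 24 h in DBA/2J, nearly all of it Fabp4. The other 7 fat markers were at or under 0.683 CPM, and Cfd was at 0 counts in all 12 libraries. The part of a changed share of leukocytes or endothelium in the other results was not tested.

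**Figure D2:**
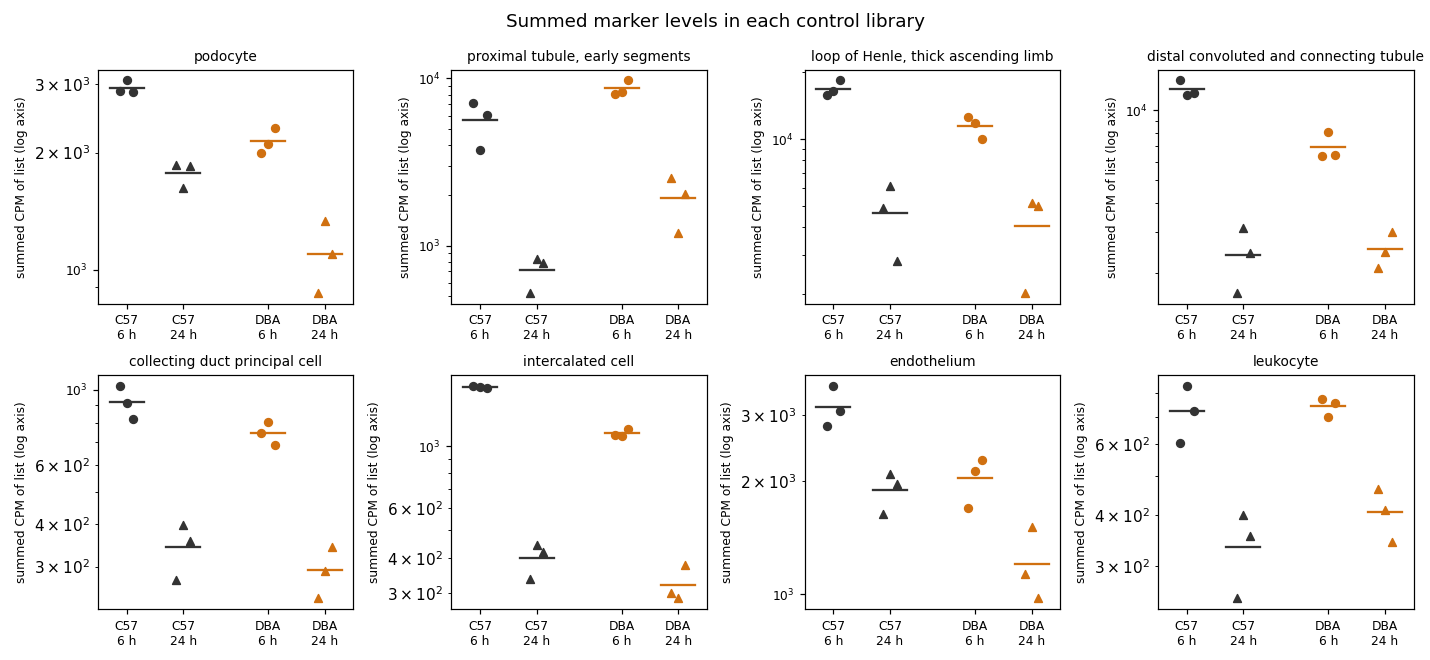
Summed CPM of the members of 8 cell type lists in each control library, on log axes. Circles are 6 h and triangles 24 h libraries, black for C57BL/6J and orange for DBA/2J, and lines are group means. In each of the 8 panels and each strain, the 24 h libraries sit below the 6 h libraries; the early proximal tubule sum of replicate 2 of C57BL/6J at 6 h is the lowest of its group.

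Transcription factors that define nephron epithelium fell with the transporters. Of 18 such factors 16 fell and 1 rose, with a median log2 fold change of -1.73. Hnf4a (ENSMUSG00000017950, chr2:163506808-163572910), a master regulator of proximal tubule differentiation, was at 177, 117 and 132 CPM at 6 h against 16.7, 29.7 and 24.2 CPM at 24 h in C57BL/6J, and 304, 326 and 354 CPM at 6 h against 102, 60.9 and 92 CPM at 24 h in DBA/2J. Every 24 h library of Hnf4a lay below the 6 h libraries of its strain, with a log2 fold change of -2.27 (SE 0.168, edgeR adjusted p = 1.5e-07). The bile acid receptor gene Nr1h4 (FXR) fell (log2 -2.69), the estrogen-related receptor Esrrg (-2.47), the mitochondrial coactivator Ppargc1a (-2.19), the fatty acid sensor Ppara (-2.03) and the vitamin D receptor Vdr (-1.91). Of the paired-box factors of the nephron, Pax2 fell (log2 -0.23) and Pax8 rose by 0.41.

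Most injury genes rose. Of 20 genes of tubular injury and failed repair 13 rose and 5 fell (median log2 1.22). Havcr1 (ENSMUSG00000040405, chr11:46735080-46779578), which encodes the proximal tubule injury marker KIM-1, was at 1.2, 1.83 and 1.39 CPM at 6 h against 236, 199 and 242 CPM at 24 h in C57BL/6J, and 34.6, 19.5 and 18.2 CPM at 6 h against 826, 301 and 527 CPM at 24 h in DBA/2J. All 24 h libraries lay above all 6 h libraries, and at both times the DBA/2J libraries were above the C57BL/6J libraries. The fitted log2 change of Havcr1 was 5.88 (SE 0.298, edgeR adjusted p = 9.97e-09). Lcn2, the secreted iron-siderophore carrier NGAL, was at 13.8, 33.6 and 14.8 CPM at 6 h against 99.4, 61.3 and 62.3 CPM at 24 h in C57BL/6J, and 30.1, 4.66 and 6.44 CPM at 6 h against 51.1, 74.2 and 54.3 CPM at 24 h in DBA/2J, a log2 fold change of 1.97 (SE 0.432, edgeR adjusted p = 0.00188). It was 2.64 on the log2 scale without replicate 1 of DBA/2J at 6 h, the highest library of its group for Lcn2. The cytokine gene Il24 was at or under 3 counts in each 6 h library and at 3.2, 3.48 and 4.77 CPM at 24 h in C57BL/6J and 22.3, 9.0 and 15.9 CPM in DBA/2J, at least 20.5-fold and 99.1-fold higher. Sprr1a, a cornified envelope precursor induced in injured epithelium, rose by a log2 value of 2.76, the urokinase receptor gene Plaur by 2.47, the keratin Krt19 by 2.46, the protease inhibitor Timp1 by 2.26 and the hyaluronan receptor Cd44 by 1.86. Not all genes of the list rose: the adhesion molecule Vcam1 and the tubular marker Dcdc2a, both used to mark failed repair, fell (log2 -0.73 and -0.76), ceruloplasmin (Cp) fell (-1.08), and osteopontin (Spp1) did not pass (0.28).

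The promoters of Sprr1a and Plaur are shown because they hold the AP-1 letters TGANTCA, the binding sequence of FOS and JUN proteins. In the 250 bases before the start in the RefSeq promoter table (GRCm38.p6), searched on both strands, 13 of the 20 injury genes had an entry, and 4 of their 18 promoters (22.2%) held the letters, against 6.75% of the 32851 promoters in the table. The 4 genes were Sprr1a, Sprr2f and Plaur, which rose, and Cp, which fell. The match is a description of letters and not a binding site. As the injury list was made of known injury genes, its share describes that choice and is not a result of these data. Sequences run 5′ to 3′ on the strand of the gene with the matches in capitals (Sprr1a at chr3:92485882-92486131, minus strand; Plaur at chr7:24462233-24462482, plus strand).
Sprr1a: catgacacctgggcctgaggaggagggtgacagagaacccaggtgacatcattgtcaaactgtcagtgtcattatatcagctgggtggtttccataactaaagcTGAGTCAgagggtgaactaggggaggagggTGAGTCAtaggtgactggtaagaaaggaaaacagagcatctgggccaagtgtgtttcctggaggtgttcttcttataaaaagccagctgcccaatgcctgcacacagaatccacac
Plaur: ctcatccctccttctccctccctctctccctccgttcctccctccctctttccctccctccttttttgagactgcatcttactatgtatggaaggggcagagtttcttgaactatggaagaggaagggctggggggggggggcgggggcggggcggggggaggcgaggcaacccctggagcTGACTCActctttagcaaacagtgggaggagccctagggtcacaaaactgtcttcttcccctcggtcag

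Genes of epithelial shape and adhesion rose in 16 of 23 members and fell in 4 (median log2 0.81). The calcium-binding protein gene S100a6 rose by a log2 value of 3.74, the membrane-binding annexin Anxa3 by 2.44, N-cadherin (Cdh2) by 2.38, the beta-tubulin Tubb6 by 1.93 and vimentin (Vim) by 0.48. The kidney-specific cadherin Cdh16 fell (log2 -0.82), and E-cadherin (Cdh1) and Krt8 did not pass (-0.13 and 0.09). Among TGF-beta and YAP target genes 9 of 14 rose and 2 fell. The matricellular gene Ccn2 rose by a log2 value of 1.49 and the adaptor gene Ajuba by 1.27, while Thbs1 fell (-0.67). Of 11 tested matrix proteases and inhibitors 7 rose, led by the stromelysins Mmp3 (log2 4.08) and Mmp10 (3.03) and the gelatinase Mmp9 (1.82), and 4 fell, including the other gelatinase Mmp2 (-1.69) and the inhibitors Timp2 (-0.85) and Timp3 (-1.23). Without replicate 1 of DBA/2J at 6 h, where Mmp2 was highest, its log2 fold change was -1.16, and in DBA/2J it went from -1.82 to -0.75.

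Immediate early genes, which cells switch on within minutes of a stimulus, were mostly lower at 24 h: 12 of 18 fell and 5 rose (median log2 -0.58). Fos (ENSMUSG00000021250, chr12:85473890-85477273) was at 562, 531 and 619 CPM at 6 h against 124, 139 and 127 CPM at 24 h in C57BL/6J, and 512, 383 and 412 CPM at 6 h against 87.7, 103 and 114 CPM at 24 h in DBA/2J. The 2 times did not overlap in either strain, and the fitted log2 change was -2.12 (SE 0.0894, edgeR adjusted p = 1.17e-10). Fosb fell (log2 -2.37), the mRNA decay factor gene Zfp36 (-2.07), Atf3 (-1.76), Nr4a1 (-1.75) and Egr1 (-1.64). Within the same family, the late FOS relative Fosl1 (FRA-1) rose by a log2 value of 1.64 and Fosl2 by 0.46, and Myc rose by 0.63. The AP-1 letters named above were in the promoter window of 0 of the 13 immediate early genes with an entry.

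**Figure D3:**
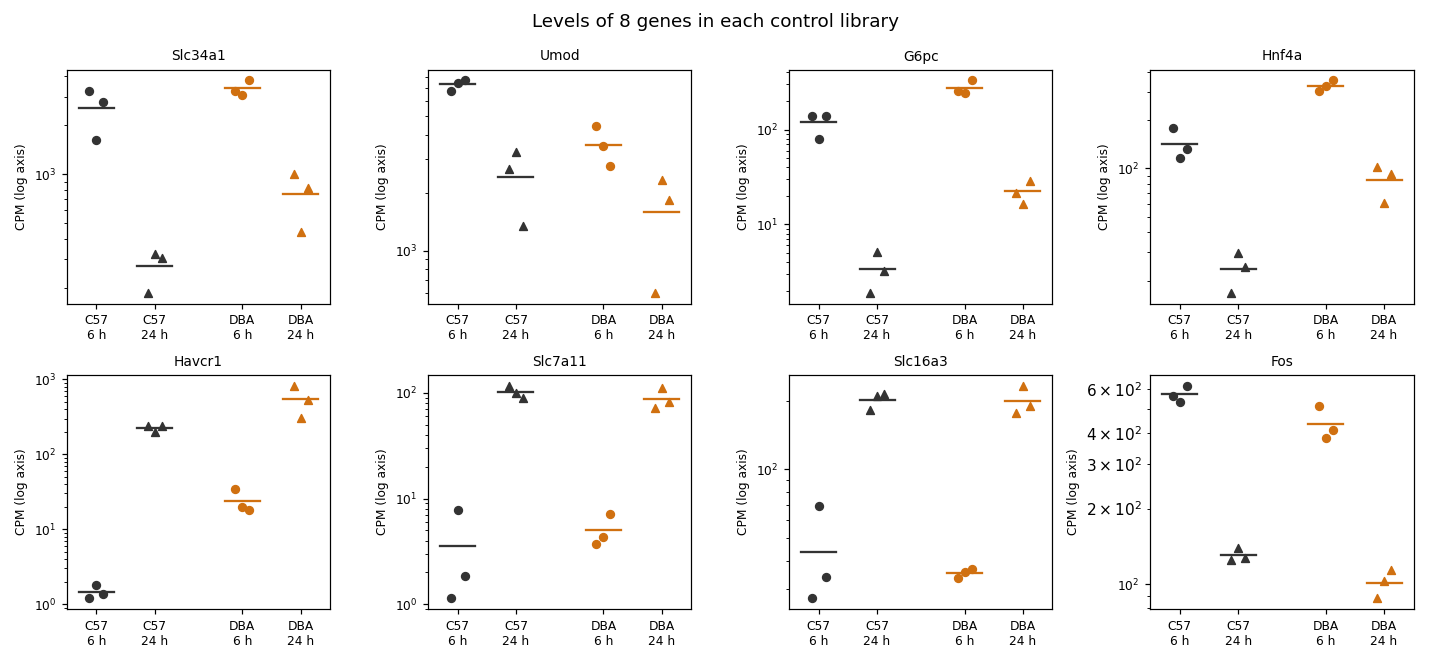
CPM of 8 genes in each control library on log axes. Circles are 6 h and triangles 24 h libraries, black for C57BL/6J and orange for DBA/2J, and lines are group means. Slc34a1, Umod, G6pc, Hnf4a and Fos lie lower and Havcr1, Slc7a11 and Slc16a3 higher at 24 h in every library of each strain; replicate 2 of C57BL/6J is the nearest of its 6 h group to the 24 h libraries for 7 of the 8 genes, all but Umod.

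Left out, that replicate changed none of these 8 calls. Without it the log2 fold change was -2.83 for Slc34a1, -1.38 for Umod, -4.50 for G6pc, -2.34 for Hnf4a and -2.15 for Fos. The genes that rose had log2 values of 5.96 for Havcr1, 5.11 for Slc7a11 and 2.60 for Slc16a3 without it, and of these 8 only the fold of Slc7a11 moved by over 1.5 times.

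Metabolic genes divided by pathway. Gluconeogenesis, by which the proximal tubule makes glucose from lactate, fell in all 8 members (median log2 -2.32). G6pc (ENSMUSG00000078650, chr11:101367561-101377903), the glucose-6-phosphatase that releases glucose, was at 140.0, 79.5 and 139.5 CPM at 6 h against 1.88, 5.06 and 3.21 CPM at 24 h in C57BL/6J, and 252, 244 and 330.4 CPM at 6 h against 21.6, 16.3 and 28.9 CPM at 24 h in DBA/2J. That was the largest fall among genes with a mean log2 CPM of at least 3 whose times separated in both strains, with a log2 fold change of -4.38 (SE 0.242, edgeR adjusted p = 1.74e-08). The glucose-6-phosphate transporter Slc37a4 fell (log2 -2.93), Pck1 (-2.80) and Fbp1 (-2.39). Fatty acid oxidation fell in 17 of 18 genes (median log2 -1.16), with Ehhadh of the peroxisomal pathway at -2.0, Hadh at -1.65, Decr1 at -1.57 and the rate-limiting carnitine transferase Cpt1a at -1.31.

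All 76 nuclear gene IDs of the respiratory chain and ATP synthase fell, and in all 76 every 24 h library lay below every 6 h library of its strain in both strains. Over all genes tested, 28.1% separated downwards in this way. Their log2 fold changes were narrow in range, from -1.60 for Cox7a1 to -0.31 for Atp5g2, with a median log2 fold change of -0.97. Of the 13 protein genes of the mitochondrial genome 12 fell (median log2 -1.31), with mt-Cytb at -1.77, mt-Nd2 at -1.74 and mt-Co1 at -1.54, and mt-Nd3 did not pass (-0.01).

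Glycolysis and lactate export rose in 13 of 15 genes and fell in 1 (median log2 1.10). Slc16a3 (ENSMUSG00000025161, chr11:120948480-120960868), the lactate exporter MCT4, was at 27.4, 69.5 and 34 CPM at 6 h against 182, 209 and 213 CPM at 24 h in C57BL/6J, and 33.5, 35.6 and 36.6 CPM at 6 h against 176, 232 and 189 CPM at 24 h in DBA/2J. The times did not overlap, and replicate 2 was the highest of the C57BL/6J 6 h group. The fitted log2 change of Slc16a3 was 2.36 (SE 0.195, edgeR adjusted p = 5.11e-07). The enzymes Pfkl, Eno1, Pkm, Hk2 and Ldha rose by a log2 value of 1.49, 1.48, 1.35, 1.29 and 1.15, and Pfkfb3, which makes an activator of phosphofructokinase, fell (-1.17). Of 16 genes of the hypoxia response 10 rose and 5 fell (median log2 0.79). Ankrd37 rose by a log2 value of 1.80, the collagen prolyl hydroxylases P4ha2 and P4ha1 by 1.38 and 1.08, and the oxygen sensors Egln3 and Egln1 by 1.26 and 1.07. The genes of the hypoxia-inducible factors themselves, Hif1a and Epas1, fell (log2 -1.10 and -1.75).

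The carbonic anhydrase gene Car9 rose by a log2 value of 1.09 and the mitophagy gene Bnip3 by 1.01. A pair of well-known hypoxia targets did not rise. The angiogenic factor Vegfa was at 796, 1206 and 946 CPM at 6 h against 1198, 1193 and 1107 CPM at 24 h in C57BL/6J, and 837, 959 and 832 CPM at 6 h against 809, 1258 and 945 CPM at 24 h in DBA/2J. Its log2 fold change of 0.22 (SE 0.115, edgeR adjusted p = 0.0953) did not pass the test, although it passed without replicate 2 of the C57BL/6J 6 h group (log2 0.30) and under some other settings. Slc2a1, the glucose transporter GLUT1, was at 2380.4, 3575 and 2769.8 CPM at 6 h against 1730.0, 2042 and 1847 CPM at 24 h in C57BL/6J, and 1831, 2085 and 2097 CPM at 6 h against 1290.1, 1866 and 1616 CPM at 24 h in DBA/2J, with a log2 fold change of -0.48 (SE 0.111, edgeR adjusted p = 0.00114). The times of Slc2a1 were apart in C57BL/6J and overlapped in DBA/2J.

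The promoters of Ankrd37 and Slc16a3 are shown with the core letters of the hypoxia response element, ACGTG, in capitals. Searched on both strands of the 250 bases before the start, these letters were present in 10 of 17 promoters of the 13 hypoxia genes with an entry (58.8%) and in 10 of 23 promoters of the 15 glycolysis genes (43.5%), against 16.6% of all promoters in the table. Of the 10 hypoxia genes with the letters 7 rose, Slc2a1 and Hif1a fell and Vegfa did not pass, and of the 8 glycolysis genes with them 7 rose and Pfkfb3 fell. The letters also lie within the E-box CACGTG, so the 2 cannot be told apart by this search. The hypoxia and glycolysis lists were grouped by known pathway, so these shares describe the choice of genes and are not a result of these data. Ankrd37 is at chr8:45999851-46000100, minus strand and Slc16a3 at chr11:120948817-120949066, plus strand (RefSeq, GRCm38.p6).
Ankrd37: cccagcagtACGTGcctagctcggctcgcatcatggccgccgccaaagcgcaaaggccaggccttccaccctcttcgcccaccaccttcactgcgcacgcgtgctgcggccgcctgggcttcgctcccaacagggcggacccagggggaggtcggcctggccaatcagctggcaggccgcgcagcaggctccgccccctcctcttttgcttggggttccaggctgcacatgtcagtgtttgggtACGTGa
Slc16a3: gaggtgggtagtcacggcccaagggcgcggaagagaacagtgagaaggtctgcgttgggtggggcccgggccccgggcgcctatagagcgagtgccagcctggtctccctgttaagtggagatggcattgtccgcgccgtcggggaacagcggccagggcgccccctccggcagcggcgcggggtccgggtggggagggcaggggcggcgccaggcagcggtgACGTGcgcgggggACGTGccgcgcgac

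Genes of the integrated stress response, which raises amino acid synthesis and import when translation is restrained, rose in 13 of 18 tested members and fell in 3 (median log2 0.62). Slc7a11 (ENSMUSG00000027737, chr3:49892526-50443614), the cystine importer xCT that feeds glutathione synthesis, was at 1.13, 7.77 and 1.85 CPM at 6 h against 117, 99.1 and 89.2 CPM at 24 h in C57BL/6J, and 3.72, 4.29 and 7.09 CPM at 6 h against 72.2, 111 and 82.4 CPM at 24 h in DBA/2J, a log2 fold change of 4.50 (SE 0.342, edgeR adjusted p = 4.18e-07). Replicate 2 was the highest of the C57BL/6J 6 h group, and still far below every 24 h library. The serine synthesis gene Phgdh rose by a log2 value of 2.99, Psat1 by 2.02, asparagine synthetase (Asns) by 2.58 and the mitochondrial folate enzyme Mthfd2 by 2.08. Other members of this response had negative values: the log2 fold change was -0.52 for Ddit3 (CHOP), -0.56 for the glutathione-degrading Chac1 and -0.47 for Gdf15. By strain, Chac1 fell in C57BL/6J (log2 -1.31, edgeR adjusted p = 0.000833) and did not pass in DBA/2J (log2 0.19, edgeR adjusted p = 0.528), and the difference did not pass (edgeR adjusted p = 0.1). Gdf15 did not pass in C57BL/6J (log2 -0.24) and fell in DBA/2J (log2 -0.69), with an edgeR adjusted p for the difference of 0.311.

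Endoplasmic reticulum chaperones and sensors rose in 19 of 21 members (median log2 0.88), led by Derl3, a part of the degradation channel (4.86), Sdf2l1 (1.89) and Creld2 (1.85). The chaperone BiP (Hspa5) rose by a log2 value of 0.65. Herpud1 fell, with a log2 fold change of -0.22 and an edgeR adjusted p of 0.0446, a call that several settings ended. Targets of the antioxidant factor NRF2 rose in 12 of 15 and fell in 2 (median log2 1.14). The quinone reductase Nqo1 rose by a log2 value of 2.51, the pentose phosphate enzyme Pgd by 2.35, thioredoxin reductase Txnrd1 by 1.94 and heme oxygenase Hmox1 by 1.70. The NRF2 gene Nfe2l2 itself did not pass (log2 -0.15), and malic enzyme Me1, also a lipogenic gene, fell (-0.73).

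In the list of heat shock proteins 11 of 13 genes fell and 2 rose in the mean over strains (median log2 -0.60). By strain, 11 fell and 2 rose in C57BL/6J, and 3 fell and 1 rose in DBA/2J, where 61.5% and 62% of all genes passed. Summed levels of the list were 9057 to 15257 CPM at 6 h and 5141 to 5773 CPM at 24 h in C57BL/6J, and 4649 to 4798 CPM at 6 h and 4868 to 5462 CPM at 24 h in DBA/2J. In 3 of the 13 every 24 h library lay below every 6 h library in both strains, against 28.1% of all genes. For 7 of the 13 (53.8%) the effect of time differed between strains, against 0.69% of all genes tested. This count was 4 with total counts and 3 to 9 when single libraries were left out, falling to 3 without any one replicate of DBA/2J at 6 h or replicate 2 or 3 of C57BL/6J at 24 h and to 4 without replicate 3 of C57BL/6J at 6 h, replicate 1 of C57BL/6J at 24 h or replicate 1 or 3 of DBA/2J at 24 h. The differences of Hspb1, Cryab and Bag3 passed the test under all 19 alternatives, those of Hsph1, Dnajb1, Hspa1b and Hsp90aa1 under 13, 8, 8 and 6. Hspb1, a small chaperone, was at 854, 583 and 587 CPM at 6 h against 275, 222 and 235 CPM at 24 h in C57BL/6J, and 151, 160.3 and 172 CPM at 6 h against 181, 190.5 and 211 CPM at 24 h in DBA/2J. In C57BL/6J its level dropped, with a log2 value of -1.47, and in DBA/2J it did not pass (log2 0.27). The difference between strains passed (edgeR adjusted p = 0.000599). The inducible Hspa1b, the co-chaperones Bag3, Dnajb1 and Hsph1 and the cytosolic Hsp90aa1 showed the same sign of difference, with a lower value in C57BL/6J. Cryab, the small chaperone alpha-B crystallin, rose in both strains, by a log2 value of 1.41 in C57BL/6J and 2.86 in DBA/2J. Hspa1b is near-identical to Hspa1a, so the split of reads between them is uncertain. The mitochondrial chaperonins Hspd1 and Hspe1 fell (log2 -0.54 and -0.95) and Dnaja1 (-1.31).

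**Figure D4:**
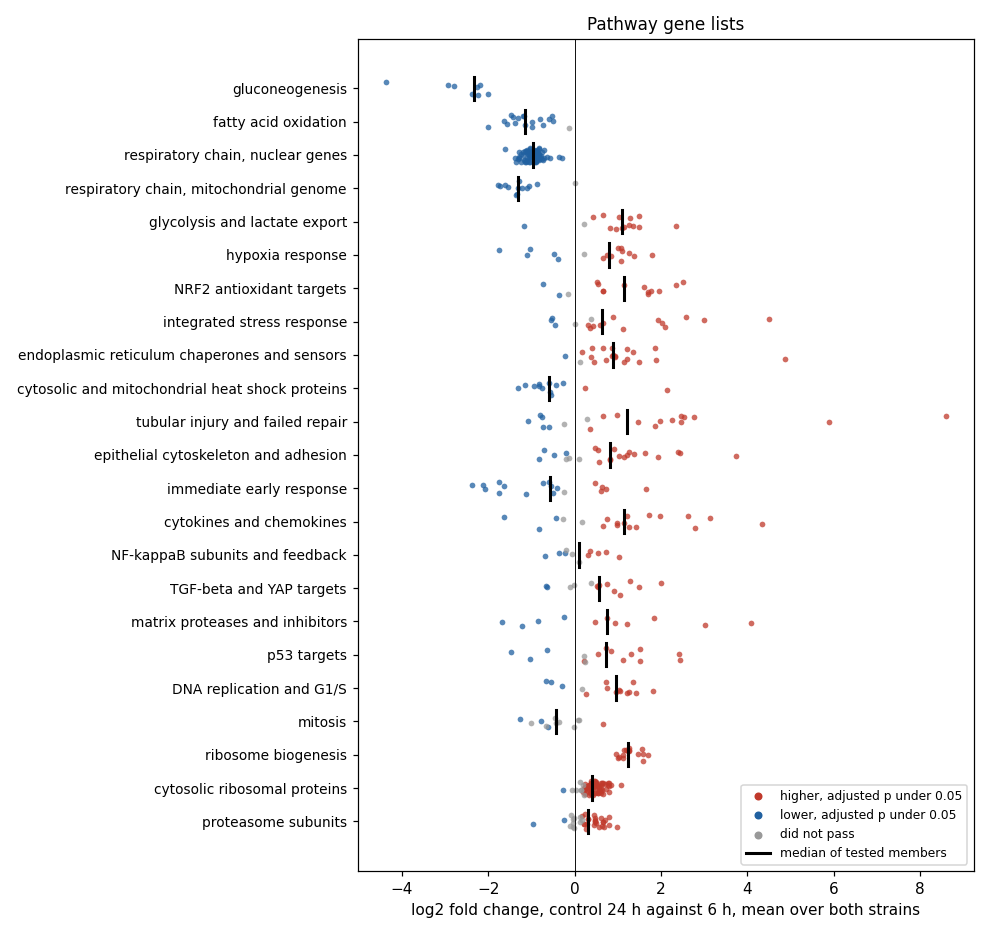
Log2 fold change at 24 h against 6 h (x axis, mean over both strains) for each tested member of 23 pathway lists. Points are genes, coloured by direction where the adjusted p was under 0.05, and black bars are list medians. Gluconeogenesis, fatty acid oxidation and both respiratory chain lists lie to the left of 0 and ribosome biogenesis and all of glycolysis but Pfkfb3 to the right, and the heat shock, immediate early and NF-kappaB lists hold members on both sides.

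Cytokine and chemokine genes rose in 14 of 19 tested members and fell in 3 (median log2 1.14). Ccl20, a chemokine for lymphocytes, rose by a log2 value of 4.33, the gp130 cytokine Il11 by 2.62, Il6 by 1.14, the neutrophil factor Csf3 by 1.72 and the neutrophil chemokines Cxcl1 and Cxcl2 by 1.22 and 1.26. The level of Cxcl1 was 21.5, 32.8 and 22 CPM at 6 h against 87.7, 108 and 93.1 CPM at 24 h in C57BL/6J, and 129, 111 and 105 CPM at 6 h against 166, 180.5 and 147 CPM at 24 h in DBA/2J. The time effect on both chemokines differed between strains: for Cxcl1 it was log2 1.92 in C57BL/6J and 0.52 in DBA/2J, and for Cxcl2 2.02 and 0.50 (edgeR adjusted p for the differences = 0.00626 and 0.0125), calls kept under 18 and 19 of 19 alternatives. The inflammasome cytokine Il1b fell (log2 -1.64) and the alarmin Il33 (-0.83), and Tnf did not pass (0.17). Among 11 NF-kappaB subunits and feedback genes 5 rose and 3 fell, near the background shares, with Nfkb2 at log2 1.02, Tnip1 at 0.74 and the adhesion molecule Icam1 at -0.69.

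The promoters of Cxcl1 and Cxcl2 are shown with the NF-kappaB letters, GGGAN followed by TTTCC, in capitals, searched on both strands. They were present in 4 of 15 promoters of the 13 cytokine genes with an entry (26.7%), those of Cxcl1, Cxcl2, Il6 and Csf1, against 0.356% of all promoters in the table. Since the cytokine list was grouped by known pathway, its share describes the choice of genes and is not a result of these data. Both chemokine genes hold the same 10 letters, Cxcl1 at chr5:90890995-90891244, plus strand and Cxcl2 at chr5:90903649-90903898, plus strand (RefSeq, GRCm38.p6).
Cxcl1: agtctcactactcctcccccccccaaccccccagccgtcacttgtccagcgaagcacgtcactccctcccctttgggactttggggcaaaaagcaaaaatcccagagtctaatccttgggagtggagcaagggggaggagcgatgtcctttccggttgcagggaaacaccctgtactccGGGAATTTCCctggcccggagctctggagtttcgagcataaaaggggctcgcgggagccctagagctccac
Cxcl2: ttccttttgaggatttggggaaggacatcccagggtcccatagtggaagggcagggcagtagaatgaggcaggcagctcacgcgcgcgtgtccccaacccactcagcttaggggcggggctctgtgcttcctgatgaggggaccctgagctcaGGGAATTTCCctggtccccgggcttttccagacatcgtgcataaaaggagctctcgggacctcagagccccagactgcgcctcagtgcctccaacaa

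In the count of genes that passed for time over both strains, interferon-stimulated genes were the list most affected by a single library. With all 12 libraries 7 of 17 rose and 2 fell, a called share below the 72% of all genes tested. Risers were led by Usp18 (log2 1.14), Irf7 (1.13) and Oasl2 (1.06), and Irf1 stood at -0.75. Ifit1, an RNA-binding antiviral protein gene, was at 51.5, 250.4 and 69.4 CPM at 6 h against 69.2, 94.4 and 63.8 CPM at 24 h in C57BL/6J, and 15.1, 13.4 and 12.9 CPM at 6 h against 23, 26.4 and 21.7 CPM at 24 h in DBA/2J. Replicate 2 of the C57BL/6J 6 h group was far above its 2 companions, and above every 24 h library of its strain. Without that library 15 of the 17 passed, 13 higher and 2 lower.

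Cell cycle genes were counted by phase. Of 15 genes of DNA replication and G1/S entry 11 rose and 3 fell (median log2 0.95): cyclin E2 (Ccne2) by 1.81, the helicase subunits Mcm6, Mcm5 and Mcm3 by 1.35, 1.27 and 1.21, with E2f1 at -0.66. Of 12 genes of mitosis 1 rose and 3 fell, and none was separated in both strains. The proliferation marker Mki67 changed by a log2 value of -1.26, the topoisomerase Top2a by -0.62 and Foxm1 by 0.66, and the mitotic kinase gene Cdk1 did not pass (-0.46). Targets of p53 rose in 10 of 15 and fell in 3. The cell cycle inhibitor p21 (Cdkn1a) was at 190.3, 373 and 218 CPM at 6 h against 728, 745 and 748 CPM at 24 h in C57BL/6J, and 192, 204 and 218 CPM at 6 h against 538, 655 and 549 CPM at 24 h in DBA/2J, a log2 fold change of 1.51 (SE 0.138, edgeR adjusted p = 4.4e-07). Phlda3 rose by a log2 value of 2.43, the ectodysplasin receptor Eda2r by 2.41 and Zmat3 by 1.51, while Btg2, also an immediate early gene, fell (-1.47).

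Ribosome biogenesis rose in all 16 genes, separated in both strains in each (26% of all genes tested separated upwards), with a median log2 fold change of 1.24. The nucleolar genes Nop56 and Nop2 rose by a log2 value of 1.71 and 1.59 and the RNA polymerase I subunit Polr1a by 1.58. Cytosolic ribosomal protein genes rose in 69 of 77, by less (median log2 0.41), with Rpl12 at 1.07, and Rps21 fell (-0.27), a call that some settings ended. Of 37 tested proteasome genes 25 rose and 2 fell (median log2 0.30), with Psmd11 at 0.98. The 2 that fell, Psmb9 (log2 -0.96) and Psmb10 (-0.24, named after its value was seen), encode subunits of the immunoproteasome, and the third such gene, Psmb8, did not pass (-0.12).

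Of 8 corticosteroid targets and metallothioneins 5 fell, with the kinase gene Sgk1 at log2 -1.02, Errfi1 at -1.04 and the leucine zipper Tsc22d3 (GILZ) at -0.94, and the 2 risers were the metallothioneins Mt2 (1.15) and Mt1 (0.91). Of 5 androgen-regulated kidney genes 4 fell. Kap, an abundant proximal tubule transcript, was at 9182, 5325 and 7086 CPM at 6 h against 787, 999.9 and 814 CPM at 24 h in C57BL/6J, and 10897, 9041 and 12599 CPM at 6 h against 2679, 1689 and 3299.8 CPM at 24 h in DBA/2J, a log2 fold change of -2.57 (SE 0.179, edgeR adjusted p = 3.65e-08), with Cyp4a12a at -2.48 and Slco1a1 at -2.33. Ornithine decarboxylase (Odc1) rose by a log2 value of 0.55. Of 10 cytochrome P450 genes 8 fell and 1 rose (median log2 -2.23). The vitamin D 24-hydroxylase Cyp24a1 fell (log2 -4.17) and Cyp2d26 (-2.95), and the vitamin D activating Cyp27b1 did not pass (0.40). Cyp1a1, the classical target of the aryl hydrocarbon receptor, rose in both strains, by a log2 value of 3.97 in C57BL/6J and 1.43 in DBA/2J.

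Among 15 circadian clock genes 9 fell and 3 rose, and the output factors Dbp, Hlf and Tef fell (log2 -1.09, -1.04 and -0.84), Npas2 fell (-1.38) and Ciart rose by 0.98. With 2 times only, a phase and a level cannot be told apart. Cholesterol synthesis and SREBP2 target genes fell in 14 of 21 and rose in 5 (median log2 -0.32). The enzymes Nsdhl and Mvd fell (log2 -1.57 and -1.34).

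The 10 largest rises among genes with a mean log2 CPM of at least 3 and separated times, passing over predicted genes and pseudogenes, were those of Crct1, Cpa4, Wnt7a, Sprr2h, Hmga2, Gsdma, Gsta1, Havcr1, Cnfn and Xirp2. Crct1, of the epidermal differentiation complex, was at or under 3 counts in every 6 h library and at 11.7, 10.3 and 11.6 CPM at 24 h in C57BL/6J and 34.9, 14.9 and 21.3 CPM in DBA/2J, at least 60.3-fold and 149-fold higher. The carboxypeptidase Cpa4 was at the same floor at 6 h in C57BL/6J (at least 191-fold higher at 24 h) and rose by a log2 value of 7.65 in DBA/2J. The ligand gene Wnt7a was likewise at least 145-fold higher in C57BL/6J and rose by a log2 value of 6.92 in DBA/2J. The cornified envelope genes Sprr2h and Cnfn rose by a log2 value of 6.98 and 5.78, the gasdermin Gsdma by 6.07, the actin-binding muscle gene Xirp2 by 5.36 and the glutathione transferase Gsta1 by 6.03. Hmga2, an embryonic chromatin protein, was at 0.126, 0.392 and 0.174 CPM at 6 h against 39.6, 31.9 and 27.7 CPM at 24 h in C57BL/6J, and 0.465, 0.37 and 0.354 CPM at 6 h against 13.8, 21.6 and 14.9 CPM at 24 h in DBA/2J, a log2 fold change of 6.26 (SE 0.209, edgeR adjusted p = 1.6e-11). Sprr2h and Gsta1 belong to families of near-identical genes, so the assignment of their reads is uncertain.

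By the same rule on level and separation, the 10 largest falls were led by G6pc. The succinate receptor gene Sucnr1 fell (log2 -4.32), Cyp24a1 (-4.17), the proximal tubule membrane gene Tmem174 (-3.64), transthyretin (Ttr) (-3.64), the fructose transporter Slc2a5 (-3.62) and Spp2 (-3.53). At 6 h Ttr was at 72.3, 43.5 and 80.8 CPM in C57BL/6J but only 1.91, 1.27 and 2.07 CPM in DBA/2J. At 24 h Ttr was at 2.83, 3.04 and 3.13 CPM in C57BL/6J and 0.339, 0.0462 and 0.373 CPM in DBA/2J. Cd300lg, a receptor of capillary endothelium, fell (log2 -3.86). The immunoglobulin A heavy chain gene Igha was at 15, 14.5 and 21.5 CPM at 6 h against 2.45, 1.01 and 1.49 CPM at 24 h in C57BL/6J, and 139, 372 and 519.8 CPM at 6 h against 11.8, 23.6 and 25.3 CPM at 24 h in DBA/2J, with a log2 fold change of -3.72 (SE 0.387, edgeR adjusted p = 7.82e-06). Jchain, which links immunoglobulin A molecules, fell (log2 -3.49).

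By strain, 10426 genes (61.5%) passed in C57BL/6J and 10521 (62%) in DBA/2J. Only 28 genes changed in opposite directions, and across genes the 2 log2 fold changes had a Pearson correlation of 0.849, a description over genes that are not independent replicates. The effect differed between strains for 117 genes (0.69%), larger or less negative in DBA/2J for 71 and in C57BL/6J for 46. That split turned to 43 and 114 with total counts and to 78 and 103 without replicate 2 of C57BL/6J at 6 h, and was 167 and 172 with DESeq2 and 114 and 112 without replicate 1 of C57BL/6J at 6 h. The count depended on the processing: it was 339 with DESeq2, 817 without the filter and 46 to 226 with single libraries left out, and each library except replicate 1 of DBA/2J at 6 h and replicates 1 and 2 of DBA/2J at 24 h moved it by over 1.5 times. Gsta2, a glutathione transferase, was at 119.6, 74.6 and 98.6 CPM at 6 h against 83.7, 109 and 109.5 CPM at 24 h in C57BL/6J, and 4.98, 6.14 and 5.2 CPM at 6 h against 122, 103 and 107 CPM at 24 h in DBA/2J. It thus rose in DBA/2J (log2 4.35) and stood at 0.04 in C57BL/6J, with a difference of 4.31 (SE 0.236, edgeR adjusted p = 9.07e-07). The lysosomal enzyme gene Hgsnat rose in C57BL/6J by a log2 value of 1.97 and stood at 0.11 in DBA/2J. The class I gene H2-Q2 stood at log2 2.4 in C57BL/6J and 0.04 in DBA/2J. The differences of Gsta2, Hgsnat and H2-Q2 passed the test under all 19 alternatives. Both Gsta2 and H2-Q2 have close relatives in the genome, so the split of reads between copies is uncertain.

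The same interval was measured in slices kept with cyclosporin A, which inhibits calcineurin, and with tunicamycin, which blocks N-linked glycosylation, in 12 libraries each that share none with the controls. Between 6 h and 24 h, 12000 of 17149 genes changed under cyclosporin A (70%, with 34% higher and 36% lower) and 12153 of 17134 under tunicamycin (70.9%, with 34.7% higher and 36.3% lower). Of 5833 genes that rose in controls and were tested in both fits, 5159 also rose under cyclosporin A (88.4% of the control list and 90.3% of the other), and of 6274 that fell 5597 also fell (89.2% and 92.1%). Under tunicamycin 5204 of 5801 rose (89.7% and 89.1%) and 5595 of 6288 fell (89% and 91.3%). Opposite calls numbered 0 and 1 under cyclosporin A and 2 and 5 under tunicamycin, for genes that rose and fell in controls. The labels do not say whether control and drug slices came from the same mice or were handled together at each time. The drug series are therefore not shown to be independent of the controls.

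The lists were counted in the same way. Early proximal tubule markers fell in all 15 in each drug series, with median log2 fold changes of -2.68 under cyclosporin A and -2.41 under tunicamycin, and nuclear respiratory chain genes in all 76 (median log2 -0.98 and -0.89). Havcr1 rose by a log2 value of 5.34 and 5.13, and the ribosome biogenesis list rose in all 16 in both. The endoplasmic reticulum list had a median log2 fold change of 1.43 under tunicamycin against 0.88 in controls and 0.81 under cyclosporin A. Of the 13 genes of fibroblasts, pericytes and smooth muscle, 3 fell under cyclosporin A and 4 under tunicamycin, where 9 fell in controls. These differences between drug and control series were not tested.

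**Figure D5:**
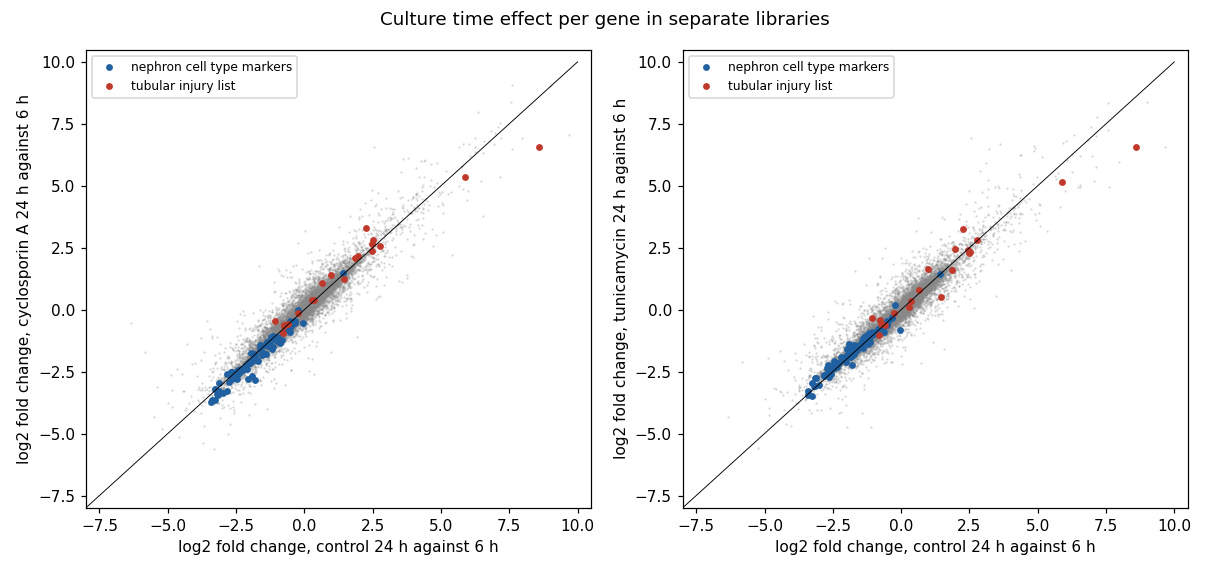
Log2 fold change at 24 h against 6 h per gene in controls (x axis) and in slices with cyclosporin A or tunicamycin (y axis), all as means over both strains. Grey points are genes tested in both fits, blue points markers of 7 nephron cell types and red points the tubular injury list, and the line marks equal values. Most genes lie near the line, with Pearson correlations of 0.952 and 0.947 across genes as a description.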

How the data were processed

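The authors deposited 1 table of whole-number counts without normalization, 55487 gene IDs by 48 libraries, of which 55141 matched a symbol. The submitters' processing notes name bcl2fastq 2.20.0, FastQC 0.11.8, STAR 2.7.9a, featureCounts 1.5.1 and GRCm38. The annotation release and strand setting are not given in the sources used here, so values of overlapping or near-identical genes are uncertain.

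The 12 control libraries were fitted as 4 groups of 3 with edgeR 4.0.16 (R 4.3.3, limma 3.58.1): TMM factors, the default filter on low counts, a robust quasi-likelihood fit with 8 residual degrees of freedom, and Benjamini-Hochberg adjustment over the 16962 genes. The difference between strains was the interaction. Standard errors were obtained by dividing each log2 fold change by the root of its F value. Where every library of a group held at most 3 counts, folds are bounds against 3 counts per library. Tested on simulated data, the fit for this comparison recovered 80% of genes changed by a log2 value of 1 and 94% at 2. Among 16962 genes, 18 of 192 calls were false, a larger share than the threshold of 0.05. The simulation changed 100 genes at each size, as many up as down, where 72% of genes changed in the data. How far its rates carry over was not tested. Replicate numbers are not shown to pair the samples: residuals of the 6 same-numbered pairs correlated at -0.02 to 0.09. Such weak correlations cannot decide whether slices with the same number came from the same mouse.

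The comparison, its members and the 43 gene lists were chosen with earlier results of these data known. Named were the 10 largest rises and falls with mean log2 CPM of at least 3 and separated times, per list the 3 largest called changes and the largest in the other direction with mean log2 CPM of at least 1, 13 genes whatever their result (such as Havcr1, Umod and Fos), and the 3 smallest p-values for the strain difference, passing over predicted genes and pseudogenes. A few list members are not reported here by name. Other list members in the text were chosen for what they are known to do, with their values in view. Alternatives were RLE factors, total counts, no mitochondrial genome, no filter, DESeq2 1.42.0, all 48 libraries, the replicate block, an additive model and each library left out.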

Additional observations from a re-analysis of the deposited data

Results flagged for a closer look

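The effect of culture time differed between strains, by the interaction test in edgeR with an adjusted p-value under 0.05, for 12 genes among the named genes and the heat shock list. Differences are in log2, DBA/2J minus C57BL/6J. Of the heat shock genes 7 of 13 had such a difference, all with the higher value in DBA/2J: Hspb1 1.73 (SE 0.198, adjusted p = 0.000599), Hspa1b 1.68, Cryab 1.45, Dnajb1 1.34, Bag3 1.23, Hsph1 1.22 and Hsp90aa1 0.92 (SE 0.193, adjusted p = 0.0437). Hspa1b is near-identical to Hspa1a, so its reads are uncertain. At 6 h the levels of Hspb1 in C57BL/6J (854, 583 and 587 CPM) lay above those in DBA/2J (151, 160.3 and 172 CPM), and at 24 h they stood closer together. Glutathione transferase Gsta2 differed by 4.31, annexin Anxa3 by 0.86 (a call kept under 6 of 19 alternatives), Hgsnat by -1.86, the class I gene H2-Q2 by -2.36 and Cyp1a1 by -2.54. With 3 libraries a group, single libraries were not tested as outliers.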

How the results depend on the processing

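The count over both strains was 11997 to 13059 under the alternatives other than leaving out a library and 11883 to 12560 over the 12 left-out libraries, with the highest value without replicate 2 of the C57BL/6J 6 h group. Of 763 named genes and list members, 41 changed sign under at least 1 alternative, 29 of them with total counts. Of these 41, 2 had passed the test, Actb and Srebf2 with total counts (log2 0.0036 and 0.07 instead of -0.21 and -0.15), and neither passed with the turned sign. Among those that had not passed were mt-Nd3, Elf5, Cdh1, Nfe2l2 and Psmb8. The balance of the strain difference (71 larger or less negative in DBA/2J and 46 in C57BL/6J) turned to 43 and 114 with total counts and 78 and 103 without replicate 2 of C57BL/6J at 6 h. For the 175 genes named by rule under 20 alternatives, counted once per gene and alternative, the call was kept 3474 times, lost 18 times and gained 4 times, among them for Herpud1 (-0.01 to -0.24), Vegfa (0.30 without replicate 2 of C57BL/6J at 6 h, 0.44 with total counts), Chac1, Top2a and Rps21 (-0.06 with total counts). The strain difference was the least stable count: 117 genes became 817 without the filter, 339 with DESeq2 and 46 to 226 with single libraries left out (181 without replicate 2 of C57BL/6J at 6 h), where only replicate 1 of DBA/2J at 6 h and replicates 1 and 2 of DBA/2J at 24 h moved it by less than 1.5 times. The same alternatives were applied to the strain differences of the heat shock list and of 20 genes after seeing the data. The list's count of 7 was 4 with total counts and 3 to 9 with single libraries left out, 9 without replicate 2 of C57BL/6J at 6 h. Counted once per gene and alternative, the call of a difference was kept 273 times and lost 107 times, most often (13 of 19 times) for Anxa3, Hsp90aa1 and Slc12a3. Lists moved in 5 cases: mitosis had 2 calls with total counts, the fat list 2 without the filter and 2 with DESeq2, the list of mitochondrial genome genes 0 by construction when these genes were left out, and the interferon list 7 to 15 with single libraries left out, 15 without replicate 2 of C57BL/6J at 6 h. Apart from that construction, the cause was not tested. Among the 763 genes, leaving out 1 library moved the fold of 10 by over 1.5 times, among them Slc7a11, Col1a1, Lcn2, Krt5, Cpa4, Wnt7a and Cd3e. The size of a strain difference that 3 libraries a group can show was not simulated.

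With the replicate number as a block within strain, 11997 genes changed over both strains, 11859 of them called in the same direction without it, and 71 differed between strains. The numbers are not shown to pair the samples, since in 2 of 6 cases a library correlated best with its own number.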

Other observations

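Strain differences in the time effect also passed the edgeR test in other list members. The T cell receptor subunit gene Cd3e changed by -3.90 in C57BL/6J and -0.32 in DBA/2J (log2, adjusted p for the difference = 0.0412). The nephron factor Lhx1 changed by -2.64 and -1.28 on the log2 scale, the fatty acid oxidation gene Acaa2 by -1.95 and -0.98, glutathione reductase Gsr by 1.48 and 0.80, and Cyp1b1 by -0.36 and -1.79. These calls were kept under 10 (Cd3e), 8 (Lhx1), 9 (Acaa2), 12 (Gsr) and 18 (Cyp1b1) of 19 alternatives. Without replicate 2 of C57BL/6J at 24 h, the log2 fold change of Cd3e in C57BL/6J was -5.28 instead of -3.90. These genes were named after their values were seen.

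Some promoter searches found no match. The HNF1 letters GTTAA followed by TNATT were in 0 of 13 early proximal tubule genes and 0 of 5 straight segment genes with an entry (0.371% of all promoters), and the SREBP letters ATCAC followed by CCCAC in 0 of 14 cholesterol genes (0.0731% of all promoters). This says only that these letters are not in the 250 bases searched.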
